A study of Drosophila melanogaster with 12 samples.

Results

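The response of fly S2 cells to depletion of *barc* was not the same in all replicates, and the comparison described here asked which transcripts responded differently in replicates 1 and 2 (called pair A below) than in replicates 3 and 4 (pair B). It rests on 8 of the 12 RNA sequencing libraries of a study that also sequenced neuroblasts, and on 7603 of the 14210 genes in the expression tables. These genes had a mean of at least 1 FPKM over the 8 libraries and an estimate marked as good in each. FPKM stands for fragments per kilobase of transcript and per 1000000 mapped fragments. S2 cells are a long-established line of embryonic origin that resembles blood cells (hemocytes). They were grown in Schneider's medium with 10% serum and exposed for 7 days to double-stranded RNA (dsRNA), either against mCherry, a red fluorescent protein that flies do not have (controls, replicates 1 to 4), or against *barc* (replicates 1 to 4). No transgene or mutation is given for the cells, and the labels do not say that the replicates were separate cultures, so the p-values measure the spread between libraries, which may be technical. Each replicate pair has 2 control and 2 *barc* dsRNA libraries. The sample descriptions carry a leading number, 1 for pair A and 2 for pair B in both treatments, whose meaning they do not give, so a date, passage or dsRNA batch behind the pairs cannot be told apart. The neuroblast libraries, 2 per group, came from sorted type I neuroblasts (dividing progenitors of neurons) of late 3rd instar brains that carried dicer2, asense-Gal4 (which drives expression in these cells) and UAS-CD8::GFP, raised at 29 °C, with either the empty landing site VIE-260B (controls) or *barc* RNAi. They enter one comparison only, beside the S2 values.

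Barricade, the product of *barc*, is the fly counterpart of Tat-SF1, an RNA-binding protein that works with the U2 snRNP, the particle that recognises the branch site of introns, and that has also been linked to transcription elongation in human cells. Loss of a splicing cofactor is known to reach many transcripts indirectly, through the cell cycle, stress and metabolism. In bulk RNA, fewer cells in a state and less RNA of that state per cell cannot be told apart. Below, the effect in a pair is the mean log2(FPKM + 1) after *barc* dsRNA minus that after mCherry dsRNA, and the interaction is the effect in pair B minus the effect in pair A. A positive interaction therefore means that a gene stood higher in pair B, relative to its own controls, than in pair A. A gene was called where its limma p, adjusted after Benjamini and Hochberg, was under 0.05.

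The libraries held between 14.6 and 28.6 M fragments (M stands for 1000000) implied by the widths of the deposited confidence intervals (21.7 and 28.6 in the controls of pair A, 17.2 and 14.6 after *barc* dsRNA, then 20.7 and 18.8, and 17.9 and 18.3, in pair B). The median absolute log2 difference between the replicates of a pair was 0.095 and 0.270 in the controls of pairs A and B and 0.075 and 0.088 after *barc* dsRNA, so control replicates 3 and 4 lay furthest apart. The summed level of 12 hemocyte markers was 1890 to 2160 FPKM in controls, 1070 to 1250 after *barc* dsRNA in pair A and 1270 to 1350 in pair B. The fall of this sum lay in the collagen genes vkg (590 to 665 FPKM in controls, 166 to 263 FPKM after *barc* dsRNA) and Cg25C (775 to 945 and 236 to 382 FPKM), while the list had 3 genes higher and 3 lower in pair A and median effects of 0.05 in pair A and 0.20 in pair B. He, a hemocyte surface protein gene, stood at 31.7 and 40.3 FPKM against 104 and 117 FPKM in pair A and at 9.03 and 12.1 FPKM against 41 and 37.4 FPKM in pair B. The scavenger receptor gene crq was at 277 to 370 FPKM in all 8 libraries, whereas Hml, a defining hemocyte gene, was at 0.284 and 0.408 FPKM in the controls of pair A and at 2.91 and 9.37 FPKM in those of pair B. Markers of fat body summed to at most 0.712 FPKM and those of crystal cells to at most 1.66 FPKM in any library.

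*barc* itself (FBgn0037081, arm 3L, 21413483 to 21426267, overlapping CG33288 and rgn) was depleted in both pairs. Control levels in pair A were 21.1 and 23.9 FPKM, and *barc* dsRNA brought them to 7.32 and 4.27 FPKM. The corresponding levels of pair B were 20.9 and 22.3 FPKM and then 3.02 and 3.22 FPKM. All 4 depleted libraries were below all 4 controls, and both depleted libraries of pair B were below both of pair A. The effect was -1.82 (SE 0.199) in pair A and -2.46 (SE 0.199) in pair B, and the interaction of -0.64 (SE 0.282, limma adjusted p = 0.144) did not pass the test. Taken between the *barc* dsRNA libraries alone, the level was lower in pair B by a log2 difference of -0.69 (SE 0.199, adjusted p = 0.0251). The interaction passed without *barc* dsRNA replicate 2 (-0.96, adjusted p = 0.028) and after quantile normalisation (-1.09, adjusted p = 0.033), and without *barc* dsRNA replicate 1 it was -0.31 (adjusted p = 0.362). Residual *barc* was thus lower, in these 8 libraries, in the pair in which fewer other genes were called.

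Depletion was followed by more called changes in pair A. There 4362 of 7603 genes (57.4%) were called, 1550 higher (20.4%) and 2812 lower (37%) after *barc* dsRNA, against 2098 (27.6%) in pair B, 1083 higher (14.2%) and 1015 lower (13.3%). Effects of at least 1 on the log2 scale numbered 1446 in pair A and 515 in pair B, called or not. The median absolute effect was 0.46 and 0.26. Single libraries moved the count of pair B far: it was 2993 and 4300 without control replicates 3 and 4 (5569 and 5566 in pair A), 984 and 892 without *barc* dsRNA replicates 3 and 4 (3924 in pair A each time), and 1549 to 1646 without 1 of the 4 libraries of pair A (3055 to 3381 in pair A). Pair A had the higher count in each of these 8 fits. Across the 7603 genes the effects of the pairs, which share no library, had a Pearson r of 0.766 and the same sign in 74.5% of genes, and 1637 of the 1699 genes called in both pairs had the same sign. Genes are not independent replicates, and this r describes 2 sets of 4 libraries only.

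The difference itself passed the test for 1702 genes (22.4%), of which 1210 (15.9%) had a positive and 492 (6.47%) a negative interaction, and 593 (7.8%) an interaction of at least 1 on the log2 scale, 385 (5.06%) positive and 208 (2.74%) negative. The median over all tested genes was 0.17, and 2827 genes had an unadjusted p under 0.05. The split depended on the scaling: quantile normalisation, which moves the median of all genes to 0.00, gave 790 positive and 703 negative calls, 52.9% positive in place of 71.1%. The count rested on single libraries. It was 906 without control replicate 1, 702 without control replicate 2, 666, 819, 673 and 758 without *barc* dsRNA replicates 1 to 4 in turn, and rose to 4099 and 3165 without control replicates 3 and 4, the pair of libraries that lay furthest apart. All 1702 genes were among the 4099 called without control replicate 3, and 665 of the 666 called without *barc* dsRNA replicate 1 were among the 1702.

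**Figure D1:**
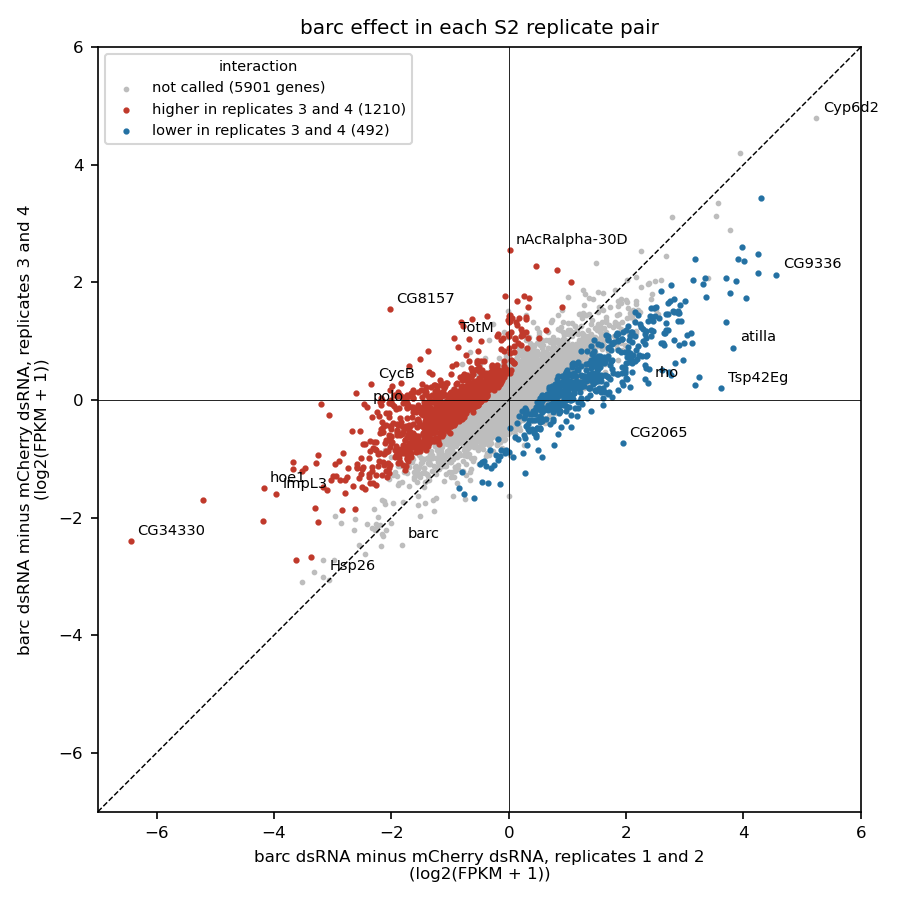
Each point is 1 of the 7603 tested genes, with the *barc* effect on log2(FPKM + 1) in replicates 1 and 2 (horizontal) and in replicates 3 and 4 (vertical); red and blue mark the 1210 positive and 492 negative interactions and the dashed line marks equal effects. Called genes lie mostly nearer to the horizontal axis than the dashed line does, since 1512 of them had the larger effect in replicates 1 and 2. The median absolute effect of all tested genes was also larger there (0.46 against 0.26).

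Most of these genes changed further in pair A. Of the 1702, 1512 (88.8%) had the larger absolute effect in pair A, 1068 of them as a fall and 444 as a rise. The other 190 (11.2%) had the larger effect in pair B. Genes at large leaned the same way, with a median absolute effect over all 7603 genes of 0.46 in pair A and 0.26 in pair B. The share with the larger effect in pair A was not counted over all genes, so 88.8% cannot be read as particular to called genes. Of the 1210 positive interactions 747 were called in pair A alone, and of the 492 negative ones 230 were. A further 290 positive and 205 negative interactions were called in both pairs in the same direction with the larger effect in pair A. Called in pair B alone were 94 positive and 24 negative interactions, and 43 and 19 genes were called in both pairs in opposite directions.

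The difference between the pairs was larger among the depleted libraries than among the controls. Between the *barc* dsRNA libraries of the pairs 3404 genes (44.8%) were called, 2173 higher (28.6%) and 1231 lower (16.2%) in pair B, a balance that turned after rescaling to TPM (1599 higher and 1719 lower) and after quantile normalisation (1719 and 1817). Between the controls 1578 (20.8%) were called, 731 higher (9.61%) and 847 lower (11.1%). Leaving out control replicates 1 to 4 in turn gave 637, 691, 3992 and 2932 calls between controls and 3022, 3018, 4932 and 4931 between *barc* dsRNA libraries, and leaving out *barc* dsRNA replicates 1 to 4 gave 1071, 1073, 1045 and 1045 beside 2081, 2200, 2064 and 2190. Of the 1702 interaction genes, 1106 (65%) were called between the *barc* dsRNA libraries only, 162 (9.52%) between the controls only, 358 (21%) in both and 76 (4.47%) in neither. The median absolute log2 difference between pairs over these genes was 0.78 among *barc* dsRNA libraries and 0.27 among controls. Of these genes, 1403 (82.4%) differed more among *barc* dsRNA libraries, a share that was not counted over all genes. Over all tested genes the same medians were 0.34 and 0.22. Along the component with the most variance (61%), *barc* dsRNA replicates 1 and 2 scored 52.5 and 50.4, replicates 3 and 4 0.225 and 2.72, and the controls between -38.6 and -18.8. The *barc* dsRNA libraries of pair B thus lay between the controls and those of pair A on that axis, and pair B lay above pair A within each treatment on the component that followed (27.7%).

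**Figure D2:**
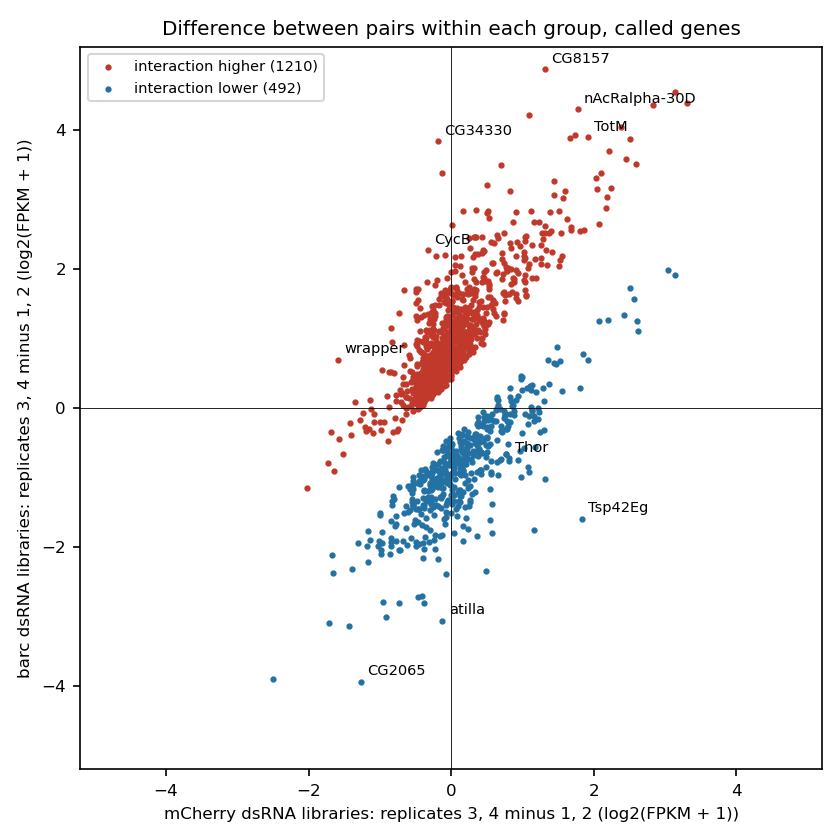
For the 1702 called genes, the log2(FPKM + 1) difference of replicates 3 and 4 minus replicates 1 and 2 among mCherry dsRNA libraries (horizontal) and among *barc* dsRNA libraries (vertical). Most points spread along the vertical axis, as 1403 of the genes differed more among *barc* dsRNA libraries, while Tsp42Eg and Thor differed in opposite directions in the 2 treatments.

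Genes of cell division mostly had positive interactions. Of 91 tested genes of mitosis and cytokinesis, 54 (59.3%) had a positive interaction and 1 (1.1%) a negative one, beside 15.9% and 6.47% of all genes. Their median interaction was 0.91 beside 0.17 over all genes. Their median effect was -0.78 in pair A, where 63 fell and 1 rose, and 0.05 in pair B, where 4 fell and 9 rose. Of all genes 37% fell and 20.4% rose in pair A, and 13.3% fell and 14.2% rose in pair B. Of 45 tested genes of S phase and replication, 30 were positive and 1 negative (median 0.84), with median effects of -0.73 and 0.13. Both lists were drawn after values had been seen. A list of 51 genes of cell cycle and replication gave 34 positive and 2 negative calls with a median of 1.03. It overlaps both and was itself chosen with earlier results of these data known, so it is no separate support. Without control replicates 3 and 4 the positive calls were 66 and 77 for mitosis and 41 and 35 for S phase, and without each of the other 6 libraries 41 to 48 and 19 to 23, the 19 without control replicate 2 or *barc* dsRNA replicate 1. These medians stayed positive after rescaling to TPM (0.85 for mitosis and 0.78 for S phase) and after quantile normalisation (0.72 and 0.66).

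The mitotic cyclin gene CycB (FBgn0000405, arm 2R, 18691026 to 18694490) showed the pattern with little scatter. Control levels in pair A were 65.8 and 67.8 FPKM against 11.4 and 13.5 FPKM with *barc* dsRNA, and those of pair B were 56.3 and 50 FPKM against 65.5 and 62.6 FPKM. Low levels were seen in *barc* dsRNA replicates 1 and 2 alone, and the other 6 libraries lay between 50 and 67.8 FPKM. The effect was -2.34 (SE 0.112) in pair A and 0.27 (SE 0.112, adjusted p = 0.113) in pair B, and the interaction was 2.61 (SE 0.158, limma adjusted p = 4.2e-04).

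polo (arm 3L, 20303105 to 20306566), which encodes a kinase of mitotic entry, spindle assembly and cytokinesis, stood at 94.7 and 104 FPKM against 15.9 and 19.8 FPKM in pair A. Its levels in pair B were 93.8 and 93.7 FPKM against 84.9 and 86.6 FPKM. Here too replicates 1 and 2 after *barc* dsRNA were far below the other 6 libraries, and the interaction was 2.29 (SE 0.164, adjusted p = 5.7e-04). aur (arm 3R, 7788852 to 7790550), the Aurora A kinase gene of centrosomes and spindle poles, stood at 32.6 and 33.2 FPKM against 5.71 and 7.46 FPKM in pair A and at 27 and 19.8 FPKM against 23.7 and 23.9 FPKM in pair B. The groups of pair B overlapped and those of pair A did not (interaction 2.21, SE 0.233, adjusted p = 0.00124). tum (arm 2R, 9743655 to 9746222), which encodes a GTPase-activating protein of the cytokinesis machinery, stood at 47.7 and 49.7 FPKM against 7.82 and 8.25 FPKM in pair A. In pair B its levels were 48.1 and 36.6 FPKM against 40.6 and 39.5 FPKM, again with overlap, and the interaction was 2.39 (SE 0.187, adjusted p = 6e-04).

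Genes of DNA synthesis followed the same course. CycE (arm 2L, 15727762 to 15748155), the cyclin of S phase entry, stood at 12.8 and 14.1 FPKM against 3.27 and 3.31 FPKM in pair A and at 10.7 and 13.1 FPKM against 11.4 and 12.1 FPKM in pair B (interaction 1.75, SE 0.174, adjusted p = 0.00103). Both *barc* dsRNA libraries of pair B lay within the range of their controls. Mcm5 (arm 3R, 6614250 to 6616872), a subunit of the replicative helicase, stood at 25.7 and 24.8 FPKM against 7.59 and 9.35 FPKM, and then at 22.9 and 18.9 FPKM against 26.1 and 24.3 FPKM. Its interaction was 1.75 (SE 0.189, adjusted p = 0.00137). For the replication licensing gene dup, which overlaps SRPK, the interaction was 1.72 (SE 0.144, adjusted p = 7.02e-04), and for Ts, the thymidylate synthase gene, which overlaps Rbp9, it was 1.92 (SE 0.276, adjusted p = 0.00367). All 8 genes kept their call without any single library and under every other setting tried.

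**Figure D3:**
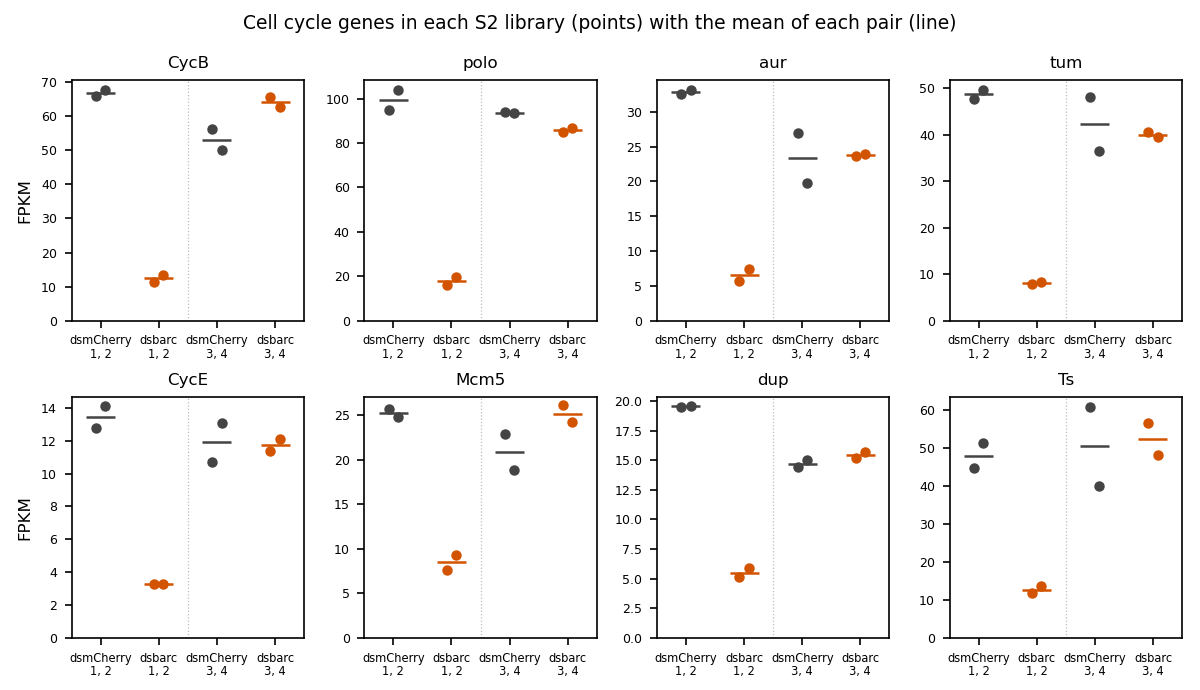
FPKM of 8 cell cycle genes in each S2 library (points, with a line at the mean of 2 libraries), for mCherry and *barc* dsRNA in replicates 1, 2 and in replicates 3, 4. In each panel the 2 *barc* dsRNA libraries of replicates 1 and 2 lie below all 6 others, for CycB at 11.4 and 13.5 FPKM against 50 to 67.8.

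The rule for named genes took the 12 largest positive interactions, of which CycB and tum were 2. The largest was that of CG34330 (arm X, 18962306 to 18962925), an uncharacterised gene among the most abundant transcripts of these cells. It stood at 1560 and 1860 FPKM against 14.9 and 23.1 FPKM in pair A and at 1640 and 1360 FPKM against 304 and 260 FPKM in pair B. No *barc* dsRNA library reached any control, and those of pair A were lower than those of pair B, with effects of -6.44 and -2.41 (interaction 4.04, SE 0.292, adjusted p = 5.7e-04). A like course with a partial fall in pair B was seen for CG14795 (3.51), CG9812 (2.62, overlapping CG30411), CG3770 (2.50, overlapping CG2790) and hoe1, a relative of the human pigmentation gene OCA2 (2.67). hoe1 stood at 33.8 and 31.3 FPKM against 0.62 and 1.13 FPKM in pair A, and at 37.4 and 35.8 FPKM against 11.2 and 13.5 FPKM in pair B.

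Others of the 12 fell in pair A and were not called in pair B. CG9815 (arm 2R, 19309031 to 19313420), uncharacterised, stood at 52.2 and 49.6 FPKM against 3.49 and 6.12 FPKM in pair A and at 120 and 99.1 FPKM against 105 and 104 FPKM in pair B. Its groups overlapped in pair B, whose controls were also above those of pair A (interaction 3.13, SE 0.286, adjusted p = 7.94e-04). CG14302 (2.80) and CG14523 (2.71, overlapping CG33203) were of the same kind. nAcRalpha-30D (arm 2L, 9793424 to 9886250, overlapping CR43766), a nicotinic acetylcholine receptor subunit gene, was at most 0.0667 FPKM in all 4 libraries of pair A. Pair B had 1.83 and 3.49 FPKM against 20.1 and 19.6 FPKM, and there it rose by 2.55 (SE 0.2; interaction 2.53, SE 0.283, adjusted p = 0.00151). This gene had next to no signal in one pair in either treatment, so its interaction rests on pair B alone.

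The 12 largest negative interactions were rises in pair A that in pair B were smaller, not called or, for CG2065, a fall. Tsp42Eg (arm 2R, 2916418 to 2920738), a tetraspanin membrane protein gene, stood at 5.94 and 6.61 FPKM against 99 and 79 FPKM in pair A and at 28.2 and 22 FPKM against 30.1 and 27.2 FPKM in pair B. Its controls of pair B were above those of pair A, and its groups in pair B overlapped (interaction -3.43, SE 0.221, adjusted p = 5.51e-04). Of 18 tested tetraspanin genes, a list drawn after values had been seen, 3 were positive and 4 negative (median -0.29), the latter including Tsp42El (-1.30) and Tsp42Ed (-1.18). These calls were 16.7% and 22.2% of the list, beside 15.9% and 6.47% of all genes. The list had 5 positive and 5 negative calls without control replicate 3, 6 and 7 without control replicate 4, and 1 to 2 and 3 to 5 without each other library.

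atilla (arm 2L, 12175448 to 12177886), which encodes a surface protein used as a marker of lamellocytes, the large flat blood cells that appear after wasp infection, stood at 0.0559 and 0.275 FPKM against 18.7 and 12.8 FPKM in pair A. In pair B it stood at 0.0612 and 0.0696 FPKM against 1.02 and 0.934 FPKM. It rose in both pairs, by 3.83 and 0.89 (interaction -2.94, SE 0.258, adjusted p = 7.94e-04). Of the 4 lamellocyte markers tested, atilla and alphaPS4, an integrin subunit gene that overlaps trpm, were called (alphaPS4 -1.71, SE 0.224), while CG42640 (-0.58, adjusted p = 0.0749) and mys (-0.16, adjusted p = 0.57) were not. The summed level of the 4 was 244 to 397 FPKM in controls, 546 to 613 FPKM after *barc* dsRNA in pair A and 335 to 340 FPKM in pair B, most of it from mys.

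CG9336 and CG9338, neighbours on arm 2L at 20858689 to 20861014 and 20865227 to 20867311, both had negative interactions. CG9336 stood at 2.08 and 2.38 FPKM against 90.6 and 62.5 FPKM in pair A and at 1.41 and 1.55 FPKM against 10.6 and 9.17 FPKM in pair B. The depleted libraries were above the controls in both pairs, by 4.56 and 2.13 (interaction -2.43, SE 0.25, adjusted p = 0.00113), with controls that were not called between pairs. CG9338 stood at 0.0675 and 0.336 FPKM against 7.76 and 6.44 FPKM in pair A and at 1.82 and 2.11 FPKM against 3 and 2.93 FPKM in pair B. It rose in pair A and was not called in pair B (0.42, adjusted p = 0.0736), and its controls were higher in pair B by 1.31 (SE 0.151; interaction -2.33, SE 0.214, adjusted p = 7.94e-04). Sulf1 (arm 3R, 12136264 to 12164260), which encodes a sulfatase that trims heparan sulfate, overlaps CG6901, CG17929 and CG17930. Its level was 7.52 and 6.71 FPKM against 102 and 106 FPKM in pair A and 7.77 and 15.5 FPKM against 29.3 and 29.1 FPKM in pair B (interaction -2.37, SE 0.356, adjusted p = 0.00419).

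The remaining members of this set were CG9691 (-2.92), CG14196 (-2.84), CG2065 (-2.68), CG10496 (-2.30), the axoneme protein gene Tektin-A (-2.31), the adenylyl cyclase gene Ac78C (-2.25) and the cuticle protein gene Cpr49Ac (-2.20). Tektin-A was below 0.1 FPKM in all 4 controls and stood at 18.9 and 15 FPKM after *barc* dsRNA in pair A against 2.13 and 2.72 FPKM in pair B. CG2065 (arm 2R, 3551292 to 3552774) was the one among them called in both pairs in opposite directions, with 36.1 and 33.8 FPKM against 136 and 139 FPKM in pair A and 15.2 and 12.8 FPKM against 8.95 and 7.18 FPKM in pair B. All 24 genes of both sets kept their call without any single library.

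Of the 43 positive and 19 negative interactions with opposite called effects, 6 are named by the size of the smaller effect, beside others that the lists or the largest interactions brought in. CG8157 (arm 2R, 11213338 to 11213888), uncharacterised, stood at 57.5 and 70.7 FPKM against 16.4 and 13.5 FPKM in pair A and at 173 and 149 FPKM against 535 and 410 FPKM in pair B. It fell by 2.02 in pair A and rose by 1.54 in pair B (interaction 3.56, SE 0.241, adjusted p = 5.7e-04), and its controls of pair B were above those of pair A. TotM (arm 2L, 5329857 to 5330464), a secreted Turandot protein gene of the stress response, stood at 67.1 and 95.4 FPKM against 40.1 and 42.7 FPKM in pair A and at 374 and 249 FPKM against 691 and 581 FPKM in pair B. The interaction was 1.99 (SE 0.313, adjusted p = 0.005), with groups that overlapped in neither pair.

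Glt (arm 2L, 8672043 to 8676811), which encodes the basement membrane glycoprotein glutactin, stood at 7.49 and 8.4 FPKM against 4.31 and 3.86 FPKM in pair A and at 8.34 and 12.4 FPKM against 28 and 26.1 FPKM in pair B (interaction 2.14, SE 0.244, adjusted p = 0.00163). pgant2, the gene of an enzyme that starts O-linked glycosylation, gave 2.20 (SE 0.195), CG34372 2.04 (SE 0.186) and the alcohol dehydrogenase gene Adh 1.77 (SE 0.304), and these 3 overlap other genes. In the other direction Thor (arm 2L, 3478434 to 3479612), the fly 4E-BP, a repressor of cap-dependent translation and a target of ATF4 and FoxO, stood at 524 and 605 FPKM against 860 and 812 FPKM in pair A. In pair B it stood at 876 and 1110 FPKM against 498 and 514 FPKM, so that the depleted libraries were above the controls in pair A and below them in pair B (interaction -1.53, SE 0.192, adjusted p = 0.00211).

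**Figure D4:**
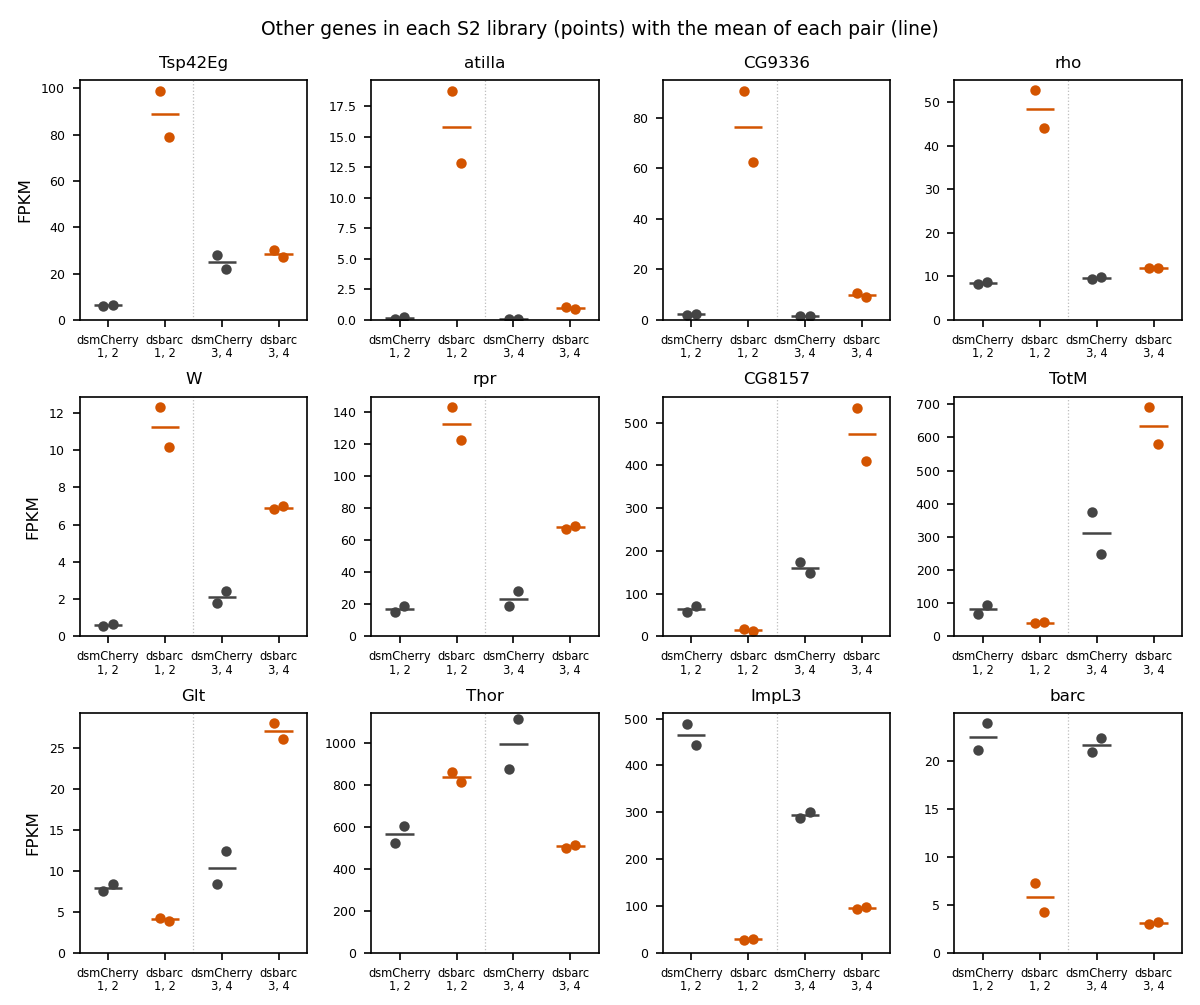
FPKM of 12 further genes in each S2 library (points, with a line at the mean of 2 libraries), for mCherry and *barc* dsRNA in replicates 1, 2 and in replicates 3, 4. Tsp42Eg, atilla, CG9336, rho, W (hid) and rpr stood highest in the *barc* dsRNA libraries of replicates 1 and 2, CG8157, TotM and Glt highest in those of replicates 3 and 4, and *barc* was low in all 4 depleted libraries, from 3.02 to 7.32 FPKM.

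Lists of energy metabolism had positive median interactions and lower median effects in pair A. Of 12 tested genes of glycolysis and lactate, 6 had a positive and 0 a negative interaction by limma (1 negative at an unadjusted p under 0.05), beside 15.9% and 6.47% of all genes. The median interaction was 0.58 beside median effects of -1.01 and -0.43. ImpL3 (arm 3L, 6252592 to 6255793), the lactate dehydrogenase gene, stood at 489 and 443 FPKM against 28.3 and 29.6 FPKM in pair A and at 287 and 300 FPKM against 93.7 and 98.3 FPKM in pair B. The effect was -3.96 in pair A and -1.60 in pair B, and its controls of pair B were below those of pair A (interaction 2.36, SE 0.13, adjusted p = 4.2e-04). Pfk, the phosphofructokinase gene, gave 1.22 (SE 0.142), the aldolase gene Ald 0.96 (SE 0.124) and Gapdh2 0.88 (SE 0.204), whose adjusted p reached 0.0938 over the alternatives. For oxidative phosphorylation 9 of 25 were positive and 0 negative by limma (0 also when unadjusted; median 0.55, median effects -0.48 and -0.02), among them ATPsyn-Cf6 (1.04, SE 0.121), a subunit of the ATP synthase, and the succinate dehydrogenase gene SdhA (0.90, SE 0.161), which overlaps CG11257. Mitochondrial ribosomal proteins gave 24 of 72 positive and 0 negative by limma (1 unadjusted; median 0.61). These counts rested on single libraries: without control replicate 3, without control replicate 4 and without each of the other 6 libraries, positive calls were 10, 8 and 3 to 4 for glycolysis, 25, 15 and 1 to 4 for oxidative phosphorylation and 63, 35 and 2 to 8 for mitochondrial ribosomal proteins. With the replicate number as a block, 15 of 25 oxidative phosphorylation and 37 of 72 mitochondrial ribosomal genes were positive. The medians of the 3 lists over the fits without 1 library lay from 0.41 upward, 0.44 upward and 0.40 upward. The medians of these 3 lists stayed above that of all genes after quantile normalisation (0.45, 0.47 and 0.41 beside 0.00), where the mitochondrial ribosomal list had 12 positive and 1 negative calls.

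Of the cytosolic ribosomal protein genes, 8 of 88 (9.09%) were positive and 0 negative by limma (2 unadjusted), beside 15.9% and 6.47% of all genes. Their median interaction was 0.20 beside 0.17 over all genes, and their median effect was -0.39 in pair A and -0.15 in pair B. Without control replicate 3 this list had 45 positive and 3 negative calls, without control replicate 4 14 and 6, and without each other library 0 of either sign by limma (8 to 17 positive and 0 to 4 negative unadjusted). Proteasome subunit genes had 9 of 30 positive and 0 negative by limma (0 also unadjusted; median 0.46), with median effects of -0.21 and 0.24, and 6 rose in pair B. Pros26 stood at 147 and 170 FPKM against 140 and 141 FPKM in pair A and at 148 and 144 FPKM against 197 and 193 FPKM in pair B, and rose in pair B alone (0.42, SE 0.0961, adjusted p = 0.0162). Its interaction of 0.59 (SE 0.136, adjusted p = 0.0205) lost its call without each of 5 single libraries. After quantile normalisation 3 proteasome genes were called, without control replicates 3 and 4 27 and 14 were, and without each other library 1 or 2, all positive.

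Heat shock and chaperone genes differed between pairs far less than they responded. Of 22 tested, 20 fell in pair A and 18 in pair B, beside 37% and 13.3% of all genes, with median effects of -2.18 and -2.24. By limma 5 (22.7%) had a positive and 0 a negative interaction (0 also unadjusted), beside 15.9% and 6.47% of all genes. The median interaction was 0.32, although the median effect was no smaller in pair B. Hsp83 (arm 3L, 3193027 to 3197059, overlapping CG14966), the fly Hsp90, stood at 868 and 876 FPKM against 350 and 338 FPKM in pair A and at 1600 and 1590 FPKM against 1230 and 1210 FPKM in pair B. The depleted libraries of pair B were above the controls of pair A, while each pair fell within itself, by 1.34 and 0.39 (interaction 0.95, SE 0.124, adjusted p = 0.00249). The list had 12 and 7 positive calls without control replicates 3 and 4 and 1 to 5 without each other library. Hsp27, a small heat shock protein gene, fell by 3.37 and 2.67 (interaction 0.70, SE 0.128), and DnaJ-1, an Hsp40 co-chaperone gene, gave 0.68 (SE 0.13), each losing its call without some single libraries. Between the controls of the pairs 11 of these 22 genes were higher in pair B and 0 lower by limma (1 unadjusted), beside 9.61% and 11.1% of all genes. The median difference was 0.51.

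The cell death genes W and rpr of the JNK list rose in both pairs and further in pair A. The list as a whole had 2 of 16 positive (12.5%) and 3 negative (18.8%), beside 15.9% and 6.47% of all genes. With a median of -0.05, the list did not move to one side. It had 4 positive and 6 negative calls without control replicate 3, 5 and 3 without control replicate 4, and 0 (3 unadjusted, limma) and 2 to 3 without each other library. With the replicate block the counts were 1 and 4, and without control replicate 4 the median was 0.06. W (arm 3L, 18160842 to 18178737), known as hid, an antagonist of the caspase inhibitor Diap1, stood at 0.566 and 0.645 FPKM against 12.3 and 10.2 FPKM in pair A and at 1.81 and 2.46 FPKM against 6.84 and 7 FPKM in pair B (interaction -1.58, SE 0.203, adjusted p = 0.00232). rpr (arm 3L, 18390653 to 18391503), reaper, of the same family, stood at 15.3 and 19 FPKM against 143 and 122 FPKM and then at 19 and 28 FPKM against 67.1 and 68.9 FPKM. All depleted libraries were above all controls for both genes (rpr interaction -1.37, SE 0.264, adjusted p = 0.0109, up to 0.0544 over the alternatives). Gadd45, of the stress and DNA damage response, gave -0.90 (SE 0.145), and egr, the fly TNF, which fell in pair A (-0.84, SE 0.151) and was not called in pair B (0.00, adjusted p = 0.99), gave 0.84 (SE 0.214), a call lost after rescaling to TPM, after quantile normalisation and without each of 6 single libraries.

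The EGF receptor pathway had genes of both signs. rho (arm 3L, 1463792 to 1468475, overlapping Ptp61F), which encodes the protease that releases EGF receptor ligands, stood at 8.32 and 8.6 FPKM against 52.9 and 44 FPKM in pair A and at 9.49 and 9.75 FPKM against 12 and 12 FPKM in pair B. It was high in *barc* dsRNA replicates 1 and 2 and was not called in pair B (0.29, adjusted p = 0.0943; interaction -2.09, SE 0.16, adjusted p = 6e-04). aos, the secreted inhibitor of the receptor, fell in both pairs, by 2.66 and 1.46 (interaction 1.21, SE 0.165, adjusted p = 0.003), and it overlaps CG33158. The list of Hippo and EGF receptor targets gave 2 positive and 1 negative of 15 (median 0.09, and -0.04 after quantile normalisation), with 4 and 6 without control replicate 3, 6 and 2 without control replicate 4 and unchanged counts without each other library. The median was -0.11 without control replicate 3, and the replicate block gave 2 calls of each sign. In the main fit the calls were 13.3% and 6.67% of this list, beside 15.9% and 6.47% of all genes. The 2 positive calls were aos and CycE (1.75), the S phase cyclin gene described above.

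Of 12 JAK/STAT genes, 3 were positive and 2 negative (median 0.15, and -0.01 after quantile normalisation), beside 15.9% and 6.47% of all genes. They were 3 and 4 without control replicate 3, 5 and 3 without control replicate 4, and 2 to 3 and 0 (2 unadjusted, limma) without each other library. The median was -0.03 without control replicate 3 and -0.045 with no filter on low values. upd3, a cytokine gene of the pathway, stood at 3.71 and 3.88 FPKM against 24.1 and 24.8 FPKM in pair A and at 4.16 and 5.91 FPKM against 15 and 15 FPKM in pair B (interaction -0.99, SE 0.204, adjusted p = 0.0135, up to 0.0617 over the alternatives). dome, the receptor gene, fell in pair A (-0.69, SE 0.095) and was not called in pair B (0.25, adjusted p = 0.0937), and its interaction was 0.94 (SE 0.134, adjusted p = 0.00366). The largest positive interaction of the JAK/STAT list was that of TotM (1.99), described above. Immune effector and recognition genes gave 1 positive and 5 negative of 25 (median -0.26), beside 15.9% and 6.47% of all genes. The negative calls of this list were 11 and 8 without control replicates 3 and 4 and 1 to 4 without each other library, lowest at 1 without control replicate 2 or *barc* dsRNA replicate 1 or 4. Its positive calls were 4 each without control replicates 3 and 4 and 0 to 1 without each other library by limma (2 to 3 unadjusted), and the replicate block gave 2 positive and 6 negative. TepIV, a thioester-containing protein gene, stood at 64.5 and 74.3 FPKM against 435 and 481 FPKM and then at 31.6 and 37.3 FPKM against 105 and 115 FPKM (interaction -1.06, SE 0.173, adjusted p = 0.00566). CecB, a cecropin gene, fell in pair B alone (-1.43, SE 0.184), with an interaction of -1.28 (SE 0.26) that 3 single libraries could remove.

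Detoxification lists held more negative than positive calls. The cytochrome P450 list gave 2 positive and 9 negative of 36 (median -0.18), the glutathione S-transferase list 1 and 4 of 17 (median -0.22), and the oxidative stress list 2 and 5 of 14 (median -0.08), beside 15.9% and 6.47% of all genes. Negative calls without control replicate 3, without control replicate 4 and without each other library were 13, 12 and 2 to 4 for cytochrome P450, 6, 5 and 1 to 2 for glutathione S-transferase and 6, 6 and 2 to 3 for oxidative stress genes. Without control replicate 1 or 2 the glutathione S-transferase list had 1 call of each sign, and without *barc* dsRNA replicate 1 it had 1 negative and the cytochrome P450 list 2. Positive calls rose as well without control replicate 3, to 4, 3 and 5 in the 3 lists, and were 2 each without control replicate 4. The replicate block gave 2 positive and 5 negative glutathione S-transferase genes, and with a mean of at least 5 FPKM that list had 1 and 2 of 12 and a median of 0.12. Under the same filter the cytochrome P450 list had 2 positive and 4 negative of 18 (median -0.32). Its genes were low, with medians of 1.91 to 2.65 on the log2(FPKM + 1) scale. In the lowest quartile of mean FPKM over all genes, 12% were positive and 10.9% negative. Gclc (arm X, 7996613 to 8010177), the catalytic subunit gene of the enzyme that limits glutathione synthesis, stood at 38.3 and 35.7 FPKM against 218 and 214 FPKM in pair A and at 12.7 and 14.2 FPKM against 40.6 and 44.3 FPKM in pair B. Its controls were lower in pair B, and it rose in both pairs, by 2.52 and 1.59 (interaction -0.93, SE 0.14, adjusted p = 0.00419). GstD1, which overlaps GstD9, gave -1.16 (SE 0.172, adjusted p = 0.00408) and Cyp6w1 -1.40 (SE 0.161, adjusted p = 0.0017). The negative call of GstD1 is counted in both the glutathione S-transferase and the oxidative stress lists. Within the oxidative stress list, Pgd, an enzyme gene of the pentose phosphate pathway, was positive (0.89, SE 0.187) and Keap1, the repressor of the Nrf2 homologue CncC, negative (-0.74, SE 0.187); Pgd lost its call without each of 6 single libraries, as did Keap1.

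Of 14 genes of the ATF4 and amino acid response, 6 were positive and 2 negative (median 0.44), beside 15.9% and 6.47% of all genes. After quantile normalisation the calls were 3 and 3. They were 8 and 4 without control replicate 3, 6 and 3 without control replicate 4, and 2 and 1 without each other library. The amino acid transporter gene mnd stood at 26 and 28.4 FPKM against 11.2 and 12.3 FPKM in pair A and at 53.7 and 58.5 FPKM against 60 and 58.8 FPKM in pair B (interaction 1.22, SE 0.143, adjusted p = 0.00177). CG3011, the fly serine hydroxymethyltransferase, which overlaps CG12236, gave 1.22 (SE 0.199). Matrix and adhesion genes gave 7 positive and 5 negative of 22 (median 0.29), with 8 and 7 without control replicate 3, 12 and 6 without control replicate 4, and 5 and 3 to 4 without each other library. The median turned to -0.05 without control replicate 3 and was 0.58 without control replicate 4. LanB2, a laminin subunit gene, fell further in pair A (interaction 1.36, SE 0.242, adjusted p = 0.00779). The alphaPS2 integrin gene if (-1.60, SE 0.19) rose in pair A and was not called in pair B, and the adhesion gene Fas3 (-1.38, SE 0.16) rose further in pair A.

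Genes of the splicing machinery, in which barricade works, had more positive than negative calls, as genes at large had, but these counts rested on single libraries. Of 18 tested genes of the U2 snRNP and its partners, 3 were positive and 1 negative (median 0.31), and of 33 other spliceosome genes 10 and 2 (median 0.32), beside 15.9% and 6.47% of all genes. Positive calls without control replicate 3, without control replicate 4 and without each other library were 9, 5 and 0 to 2 for the U2 list by limma (3 to 4 unadjusted in the last) and 22, 14 and 1 to 3 for the other spliceosome genes, with 1 to 2 and 0 to 2 negative calls. With the replicate block the other spliceosome genes had 11 positive and 0 negative calls by limma (2 unadjusted). U2A, a U2 snRNP protein gene that overlaps CG12107, stood at 31.8 and 31.2 FPKM against 20 and 18.1 FPKM in pair A and at 30 and 25.1 FPKM against 29.5 and 29.8 FPKM in pair B (interaction 0.81, SE 0.16, adjusted p = 0.0117, up to 0.06 over the alternatives). pUf68, which encodes a poly-U binding splicing factor, was negative (-0.82, SE 0.144, adjusted p = 0.00749). SmG, a core protein gene of the spliceosomal snRNPs, was positive (1.22, SE 0.167, adjusted p = 0.003). Among 13 genes of nonsense-mediated decay and exon junctions, 2 were positive and 3 negative (6 and 3 without control replicate 3 or 4, and 0 to 1 and 2 without each other library by limma, with 3 to 4 positive unadjusted, and 4 and 3 with the replicate block), including Smg6, the endonuclease gene of the decay pathway (-1.01, SE 0.152, adjusted p = 0.00412), which rose in pair A (1.35) and was not called in pair B (0.33, adjusted p = 0.0533). After quantile normalisation the U2 list had 3 calls of each sign and a median of 0.13.

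The remaining lists had at most 3 calls of either sign, and over all genes 15.9% were positive and 6.47% negative. The small RNA list had 3 positive and 0 negative of 18 by limma (0 also unadjusted; median 0.19, and -0.02 after quantile normalisation), including Tudor-SN (1.04, SE 0.122), a nuclease gene, and the piRNA gene aub (0.81, SE 0.138). Lipid and sterol synthesis had 2 and 0 of 11 by limma (1 negative unadjusted; median 0.27), the unfolded protein response 2 and 0 of 17 (1 negative unadjusted; median 0.06, and -0.03 after rescaling to TPM), the insulin, TOR and FoxO list 1 and 2 of 20 (median -0.21), the metal list 2 and 2 of 8 (median -0.38), the hypoxia list 1 and 1 of 9 (median -0.09) and the ecdysone list 1 and 1 of 14 (median -0.17). Without control replicate 3 these 7 lists, in the same order, had 4, 5, 7, 2, 2, 2 and 2 positive and 3, 3, 2, 11, 4, 5 and 6 negative calls, and without control replicate 4 they had 6, 5, 3, 5, 2, 3 and 2 positive and 0, 2, 1, 3, 3, 1 and 1 negative. Without each other library no list of the 7 had more than 2 of either sign. Without control replicate 4 the medians of the insulin, hypoxia and ecdysone lists turned to 0.22, 0.14 and 0.02, and that of the hypoxia list was 0.04 without control replicate 2. With the replicate block the unfolded protein response had 1 positive call, lipid synthesis 2 positive and 1 negative, and the insulin list 0 positive (2 unadjusted, limma) and 2 negative. Some lists share genes. Thor (-1.53) gave the lowest value of the hypoxia, the insulin and the ATF4 lists, so its negative call is counted in each. MtnA, a metallothionein gene, stood at 1290 and 1360 FPKM against 272 and 234 FPKM in pair A and at 1070 and 728 FPKM against 370 and 364 FPKM in pair B (interaction 1.12, SE 0.246, adjusted p = 0.0169), a call that each of 6 single libraries could remove. Argk, the arginine kinase gene, gave -0.95 (SE 0.208, adjusted p = 0.0167), a call that each of 4 could remove.

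Of 26 tested markers of blood cells and of other tissues, 7 (26.9%) were called, 2 positive and 5 negative, beside 22.4% of all genes, and the part of such cells in the interaction was not tested. Of the 12 hemocyte markers, Pxn, a matrix peroxidase gene, was the one called (0.94, SE 0.203, adjusted p = 0.0162), and it lost its call after quantile normalisation and without each of 5 single libraries. The hemocyte list depended on the controls of pair B: without control replicate 4, 7 of 12 were positive and 0 negative by limma (0 also unadjusted; median 0.465), and without control replicate 3, 1 was positive and 3 negative (median -0.248), while the replicate block gave 2 positive. Levels of Pxn were 8.55 and 7.78 FPKM against 2.75 and 3.38 FPKM in pair A and 2.03 and 1.5 FPKM against 1.25 and 1.42 FPKM in pair B. The sum of 6 neuroblast markers rose from 2.03 to 2.26 FPKM in controls to 34.3 to 35.3 FPKM after *barc* dsRNA in pair A and to 11.4 to 11.7 FPKM in pair B, nearly all of it insc. insc (arm 2R, 16708771 to 16723569, overlapping sktl), inscuteable, an adaptor of spindle orientation, stood at 35 and 34 FPKM after *barc* dsRNA in pair A and at 11 and 11.2 FPKM in pair B, against 1.7 to 1.97 FPKM in the 4 controls (interaction -1.63, SE 0.143, adjusted p = 7.94e-04). The other 5 neuroblast markers, dpn, ase, wor, mira and pros, were below 1 FPKM in every library, and ase was at 0 in 7 of the 8. Of single markers of neurons, glia and muscle, brp (-1.47), wrapper (2.28) and Mlc2 (-0.66) were called, and brp and Mlc2 lost their calls without each of 6 single libraries.

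**Figure D5:**
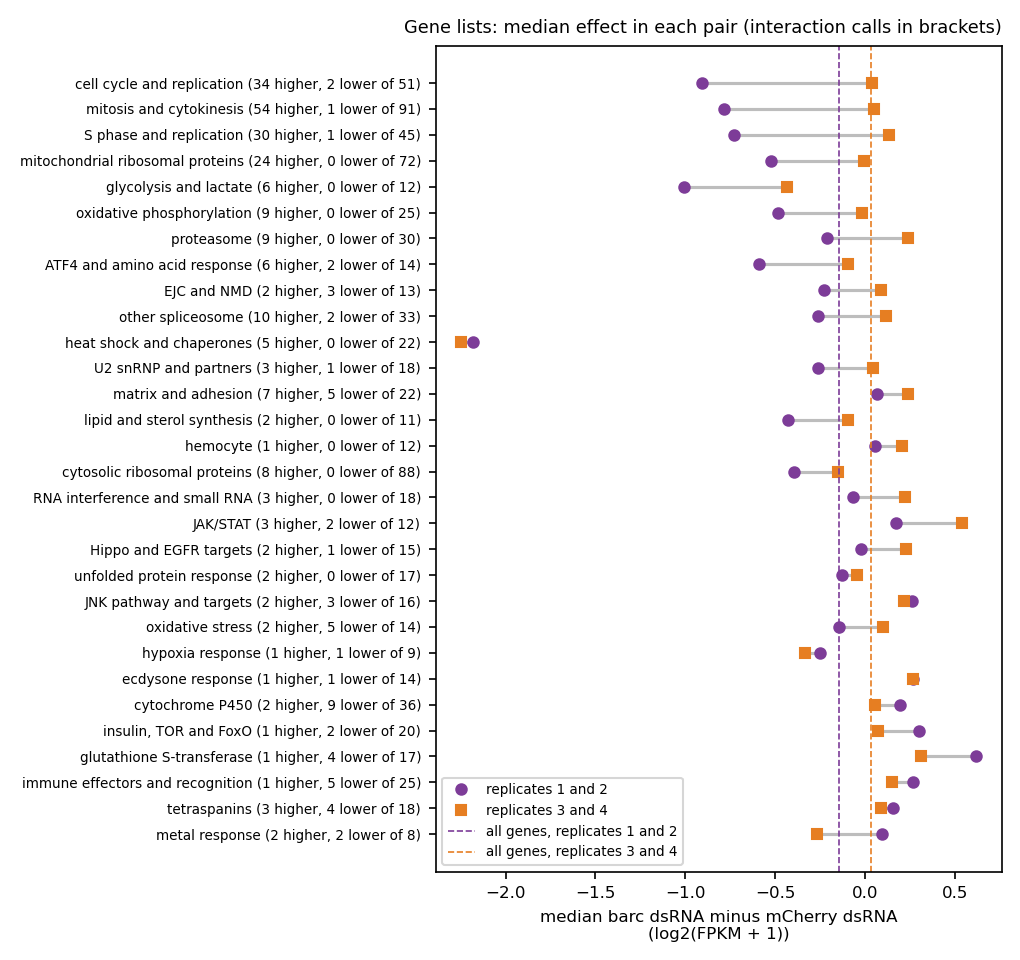
Median *barc* effect on log2(FPKM + 1) over the tested genes of each list in replicates 1 and 2 (circles) and in replicates 3 and 4 (squares), with the medians of all genes as dashed lines at -0.15 and 0.03. Heat shock genes lie near -2.2 in both pairs, while cell cycle lists lie between -0.91 and -0.73 in replicates 1 and 2 and between 0.04 and 0.13 in replicates 3 and 4.

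Interaction calls were spread unevenly over gene structures. Among 7247 tested genes with a release 6 structure, those with over 6 introns had a positive interaction in 7.94% and a negative one in 9.44% of 1197 genes, while genes with 1 intron had 18.3% and 4.2% of 1308. By summed intron length, the shortest quartile had 18.4% positive and 2.9% negative, and the longest 12.7% and 13.1%. In genes with over 6 introns the median effect was 0.19 in both pairs, against -0.25 and -0.01 in genes with 1 intron. On chromosome 4, 2 of 51 genes (3.92%) were called for the interaction, and the median effect there was 0.53 in pair A and 0.51 in pair B. By level, 22.9%, 20.4%, 19.9% and 26.3% were called from the lowest to the highest quartile of mean FPKM. The separate parts of level, length and intron number were not tested.

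In the neuroblasts with *barc* RNAi, 2 libraries against 2 controls, median values beside the S2 interaction were within 0.1 of 0. The neuroblast libraries were made with another kit than the S2 libraries, so cell type and kit cannot be told apart here. The median log2 change there was -0.06 over 1206 genes with a positive interaction, 0.04 over 492 with a negative one and 0.00 over the 5883 not called. The share of genes above 0 was 34.2%, 59.3% and 48.7% in the same order. CycB, which differed most between S2 pairs among cell cycle genes, changed by 0.05 in neuroblasts, and ImpL3 by 2.83 where both S2 pairs fell.

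The authors' deposited table of the S2 comparison takes all 4 replicates of each treatment together. It holds a finite log2 fold change for 1693 of the 1702 interaction genes, of which 1015 had an adjusted p of 0.05 or more in the authors' deposited table and 678 a lower one. Among those 1015 were 230 genes whose interaction was at least 1 on the log2 scale. The same split was not counted over all 7530 tested genes with a finite value. These counts therefore cannot show whether interaction genes passed there more or less often than genes at large. For CycB the authors' deposited table gave -0.67, a value between the effects of pair A and pair B, and for Tsp42Eg 1.87. Over 7530 tested genes the median absolute difference between the log2 fold change of the authors' deposited table and the mean of the pair effects was 0.05, and 143 genes differed by over 1. Among these, the authors' deposited table gave 8.19 for Tektin-A and 6.22 for atilla, where the mean of the pair effects was 2.89 and 2.36. For CG8157 it differed in sign, with 1.15 in the authors' deposited table beside -0.24. The measures are unlike. The deposited value is the log2 ratio of group means of counts, taken before the log and with no 1 added. The pair effects are differences of mean log2(FPKM + 1), which shrinks changes of low genes. How much of these gaps comes from the measure was not tested.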

How the data were processed

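Polyadenylated RNA of the 8 S2 libraries was analysed from the FPKM tables that the authors deposited, which have the layout of Cufflinks gene tracking files and confidence bounds per gene. The submitters' processing notes list Cufflinks 1.3.0, TopHat 1.4.1, BWA 0.6.1, DESeq and HTSeq without saying what each was used for. The authors also deposited a table per cell system of group mean signal, their ratio, its log2 and a p-value, per the file headers, which was used as the authors' own result only. Libraries were joined by gene identifier, 41 genes with a failed estimate in any library were left out, and 0 columns of single samples were left unused. Locus positions are those of the tables (counted from 1), whose build is not given in the sources used here and differs from release 6, so release 6 was used by identifier for intron structure alone (7247 of 7603 genes, 95.3%). No sequence is printed. The strand setting of the counting is not given in the sources used here, so levels of overlapping genes are uncertain.

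limma 3.58.1 in R 4.3.3 was run with a mean-variance trend on log2(FPKM + 1), with 1 mean for each of the 4 combinations of dsRNA and replicate pair and 4 residual degrees of freedom. The scale understates changes of low genes. The fit assumes 1 spread per gene in all 4 combinations, so both pairs share an SE. Control replicates 3 and 4 differed by a median of 0.270, the others by 0.075 to 0.095, and all SEs and calls rest on that assumption. Tests were two-sided and adjusted over all 7603 genes. The procedure was also run on simulated data, which had 1 spread per gene in all 4 combinations. That run therefore cannot show how the unequal spread of the controls affects the calls. Depth was taken from confidence interval widths, and a chi-square test of these fragments found more than sampling noise between any 2 replicates of a pair (at least 9.9 per degree of freedom), so none were merged. The plots were drawn with matplotlib 3.10.9. Genes named are *barc*, the 12 largest called interactions of each sign, up to 4 tested members of each list by absolute interaction, called or not, and up to 6 genes called in both pairs with opposite sign. All members and lists were chosen with earlier results of these data known; the division into S phase and mitosis and the tetraspanin list were drawn after values were seen. Deviations from the mean of pair and group correlated between same-numbered libraries of the treatments with r of 0.109 in pair A and 0.382 in pair B. Deviations from the group mean gave r of 0.451 to 0.588. These hold the difference between the pairs, so they cannot show that same-numbered libraries belong together. Whether the numbers pair the samples is thus not known. The main fit has no replicate block, and a fit with the replicate number as a block was run beside it. Alternatives were a pseudocount of 0.1, no filter, a mean of at least 5 FPKM, any estimate status, rescaling to TPM, quantile normalisation, no trend, robust moderation and leaving out each library.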

Additional observations from a re-analysis of the deposited data

Results flagged for a closer look

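The interaction itself is a difference between replicate pairs of the same treatment, tested as a contrast, with 1210 positive and 492 negative calls. Among the named genes, 300 groups of 4 libraries were examined for a single library far from the other 3, and 9 were found. Each group joins both replicate pairs, and the genes were mostly named by a difference involving those pairs. No chance rate can therefore be set beside this count. Control replicate 4 stood apart for tum (36.6 FPKM, others 47.7 to 49.7), Sulf1 (15.5, others 6.71 to 7.77), EcR (24.4, others 14.8 to 16) and SmF (116, others 159 to 169). Control replicate 2 stood apart for atilla (0.275 FPKM, others 0.0559 to 0.0696), polo (104, others 93.7 to 94.7) and Pros26 (170, others 144 to 148). SCAP was low in control replicate 3 (43.9 FPKM, others 52.6 to 53.6) and Lip4 in *barc* dsRNA replicate 4 (45.2, others 51.1 to 52.3).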

How the results depend on the processing

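Each pair has 2 libraries per treatment, which limits every value here; where 1 was left out, the lone library was assumed to vary like the rest. Leaving out each library gave 666 to 4099 interaction calls, 3055 to 5569 calls in pair A, 892 to 4300 in pair B, 637 to 3992 between controls and 2064 to 4932 between *barc* dsRNA libraries, and -0.964 to -0.306 for the interaction of *barc*, which was -1.093 after quantile normalisation. With the replicate number as a block there were 1935 interaction calls (1597 shared), 4632 calls in pair A and 2432 in pair B. The interaction of *barc* was then -0.635 (limma adjusted p = 0.121), and of 122 named calls Edem1 alone was lost. The other settings gave 1468 to 1698 interaction calls. Positive shares moved from 35.5% to 46% (TPM) and 47.1% (quantile) in pair A, from 46.3% to 30.6% (TPM) between controls and from 63.8% to 48.2% (TPM) and 48.6% (quantile) between *barc* dsRNA libraries; between controls they were 61.7% and 67% without control replicates 1 and 2. Of the 122 named calls, 70 were kept without each single library and 101 under all other settings. Uncalled values changed sign for scyl (from -1.419 to 0.040 over single libraries left out), InR (-1.600 to 0.228) and mys (-0.326 to 0.008), highest without control replicate 4, for eater (-0.305 to 1.163), lowest without control replicate 3, for moody (0.460 without control replicate 4, -0.081 with TPM, -0.183 with quantile normalisation, -0.033, -0.451, -0.042 and -0.035 without control replicates 1 and 3 and *barc* dsRNA replicates 1 and 4) and for nrv2 (0.112 without control replicate 1, -0.082, -0.150, -0.102, -0.030, -0.035 and -0.030 with TPM, quantile normalisation and without control replicates 2 and 3 and *barc* dsRNA replicates 2 and 3). The cause of these shifts was not tested.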
